A study of Homo sapiens with 36 samples.

Results

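The 9 genes described here carry out or control peptide presentation on major histocompatibility complex (MHC) class I molecules: the heavy chains HLA-B, HLA-C, HLA-E and HLA-F, the light chain B2M, the peptide transporter subunits TAP1 and TAP2, the loading factor TAPBP and the class I transactivator NLRC5. They were chosen by name and looked up among the 19014 genes of the table of normalized counts, where 8 of the 9 have a row. HLA-B was not analysed from normalized counts here, and only its length- and depth-scaled FPKM (fragments per kilobase of transcript, scaled to library size) are given. A gene was tested if 9 or more of the 36 libraries held 10 or more normalized counts of it, which 6 of the 8 did, among 15819 genes in all. HLA-C and NLRC5 lay below that minimum, with 4 libraries each, and their values come from the same fit made without it.

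RNA was sequenced from H446, an established small-cell lung cancer line of the subtype marked by the transcription factor NEUROD1. The labels call the controls wild type for NEUROD1: 3 clones, numbered 3, 10 and 13, that carry a guide RNA without a target. The other 3 clones (12, 15 and 2-1) are NEUROD1 knockouts made with 1 guide RNA. Each clone received 1 µM JQ1, an inhibitor of BET bromodomain proteins, or its solvent DMSO for 24 h, in 3 biological replicates. All knockout clones share that guide, so its effects and those of losing NEUROD1 cannot be told apart. In knockout clones the level of NEUROD1 was 1.87 ± 2.93 normalized counts with DMSO against 5998 ± 581 in control clones (mean ± SD over clone means, n = 3).

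One library, replicate 1 of the JQ1-treated knockout clone 12, carried markers of other cells and was left out. It held 46010 normalized counts of CEACAM6, an epithelial surface protein of lung, and 1569 of PTPRC, the pan-leukocyte marker CD45. The highest counts in the other 35 libraries were 80.4 and 22.0. Its 31825795 reads also stood above the 13282337 to 18890506 of the others. Control clone 13 with JQ1, replicate 1, held the 80.4 counts of CEACAM6, and the other 34 libraries held 0. Nearly all nucleated cells express class I genes. JQ1 results are therefore also given with the left-out library where it ended a call, turned a direction or moved a value clearly.

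Class I molecules display peptides of the cell's own proteins to CD8 T cells and to receptors of natural killer cells. Peptides cut by the proteasome are pumped into the endoplasmic reticulum by the TAP1-TAP2 transporter, tapasin (TAPBP) holds the empty heavy chain next to it, and the loaded heavy chain leaves for the surface bound to B2M. Transcription runs through the SXY module of the promoters, whose X1, X2 and Y boxes are bound by RFX, CREB or ATF1 and NF-Y proteins with NLRC5 as coactivator, and through interferon-stimulated response elements bound by IRF and STAT proteins. Small-cell lung cancer is known for low class I expression.

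Promoters are shown for the light chain, the transporter subunits, tapasin and a classical heavy chain, so that the elements named above can be seen in place. The 250 bases before the start site were read from RefSeq on GRCh38.p14, which had an entry for 7 of the 9 members (none for HLA-E and NLRC5). Capitals mark matches on either strand to the core of the interferon-stimulated response element (GAAA, any 2 bases, GAAA), to CCAAT of the Y box and to TGACG of the X2 box. The E-box letters CAGATG and CAGCTG were searched as well. B2M (chr15:44711267-44711516, plus strand), TAP1 (chr6:32853705-32853954, minus strand), TAP2 (chr6:32838740-32838989, minus strand), TAPBP (chr6:33314079-33314328, minus strand) and HLA-C (chr6:31272093-31272342, minus strand) are printed 5′ to 3′ towards the start site.
B2M: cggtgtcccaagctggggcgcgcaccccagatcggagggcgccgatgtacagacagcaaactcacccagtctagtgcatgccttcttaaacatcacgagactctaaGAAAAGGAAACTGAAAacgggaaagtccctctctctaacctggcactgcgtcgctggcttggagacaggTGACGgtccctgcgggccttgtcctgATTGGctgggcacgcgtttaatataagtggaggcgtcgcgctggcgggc
TAP1: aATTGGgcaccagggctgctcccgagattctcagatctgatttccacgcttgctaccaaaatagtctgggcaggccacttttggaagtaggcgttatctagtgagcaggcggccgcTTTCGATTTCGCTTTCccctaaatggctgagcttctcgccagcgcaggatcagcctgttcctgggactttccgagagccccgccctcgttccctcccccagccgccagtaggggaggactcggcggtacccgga
TAP2: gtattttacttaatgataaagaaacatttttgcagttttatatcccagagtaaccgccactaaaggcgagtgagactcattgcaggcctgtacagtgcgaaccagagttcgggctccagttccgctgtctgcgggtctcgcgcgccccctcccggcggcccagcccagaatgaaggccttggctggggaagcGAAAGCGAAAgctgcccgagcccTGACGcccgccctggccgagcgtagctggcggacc
TAPBP: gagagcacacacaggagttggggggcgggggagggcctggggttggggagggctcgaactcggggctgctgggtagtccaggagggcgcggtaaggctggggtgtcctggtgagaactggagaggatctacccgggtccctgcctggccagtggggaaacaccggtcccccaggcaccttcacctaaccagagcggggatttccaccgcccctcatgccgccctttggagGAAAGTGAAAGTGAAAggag
HLA-C: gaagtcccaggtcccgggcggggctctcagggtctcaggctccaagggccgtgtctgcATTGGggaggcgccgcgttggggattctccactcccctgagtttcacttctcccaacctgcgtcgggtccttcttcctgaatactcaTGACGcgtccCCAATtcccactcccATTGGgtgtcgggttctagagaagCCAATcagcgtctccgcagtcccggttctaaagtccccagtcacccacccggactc

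The interferon-response core was matched in 5 of the 7 promoters (HLA-F, TAP2, TAP1, TAPBP and B2M), against 3.02% of all 35116 promoters of the same length. The search allowed no mismatch, so a variant of the element in HLA-B or HLA-C would be missed. In TAP1, TAPBP and B2M the motif stood as 2 overlapping matches, and the TAPBP pair lay 20 to 5 bases before the start. CCAAT was matched in 5 members (HLA-F, HLA-C, HLA-B, TAP1 and B2M), against 32.0% of all promoters. TGACG was matched in 4 (HLA-C, HLA-B, TAP2 and B2M), against 21.2%. The E-box letters CAGATG and CAGCTG, which all promoters hold in 12.15% and 13.99% of cases, were matched in none of the 7. TAP1 has a further start site in the table, whose window held no match to any of the motifs. These are matches of letters and no measure of binding.

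In GENCODE 29 on GRCh38 all 9 are protein-coding genes. HLA-F (chr6:29722775-29738528) and HLA-E (chr6:30489467-30494205) lie on the plus strand of the MHC. HLA-C (chr6:31268749-31272130) and HLA-B (chr6:31269491-31357188) lie on the minus strand, and their annotated spans overlap. TAP2 (chr6:32821833-32838780), TAP1 (chr6:32845209-32853978) and TAPBP (chr6:33299694-33314387) also lie on the minus strand. B2M (chr15:44711487-44718877) and NLRC5 (chr16:56989485-57083531) lie outside the MHC, both on the plus strand. The heavy-chain genes are close copies of each other and vary between people, so reads can be split between them or lost against the reference, and single heavy-chain values are uncertain.

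Compared per length, the light chain far outran every heavy chain among the members. B2M stood at 355 ± 39.7 FPKM in control clones with DMSO (mean ± SD over clones, n = 3 here and below) and at 505 ± 19.6 FPKM in knockout clones. By mean FPKM over libraries it ranked 235 and 180 among 57820 genes. HLA-E followed at 3.54 ± 1.27 FPKM in controls and 15.9 ± 1.89 in knockouts. HLA-F (2.09 ± 0.773) and TAPBP (1.70 ± 0.195) did not differ beyond their spread in control clones, while in knockout clones TAPBP at 5.14 ± 0.474 stood above HLA-F at 1.79 ± 1.50. The other 5 members lay under 0.1 FPKM in control clones with DMSO, and neighbours in that order differed by less than their spread: TAP2 at 0.0867 ± 0.0498, HLA-C at 0.0444 ± 0.0227, TAP1 at 0.0244 ± 0.00839, NLRC5 at 0.0211 ± 0.0366 and HLA-B at 0.00556 ± 0.00962 FPKM. In knockout clones with DMSO the same 5 ranged from 0.249 ± 0.0818 FPKM for HLA-B to 1.35 ± 1.57 for TAP2.

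**Figure D1:**
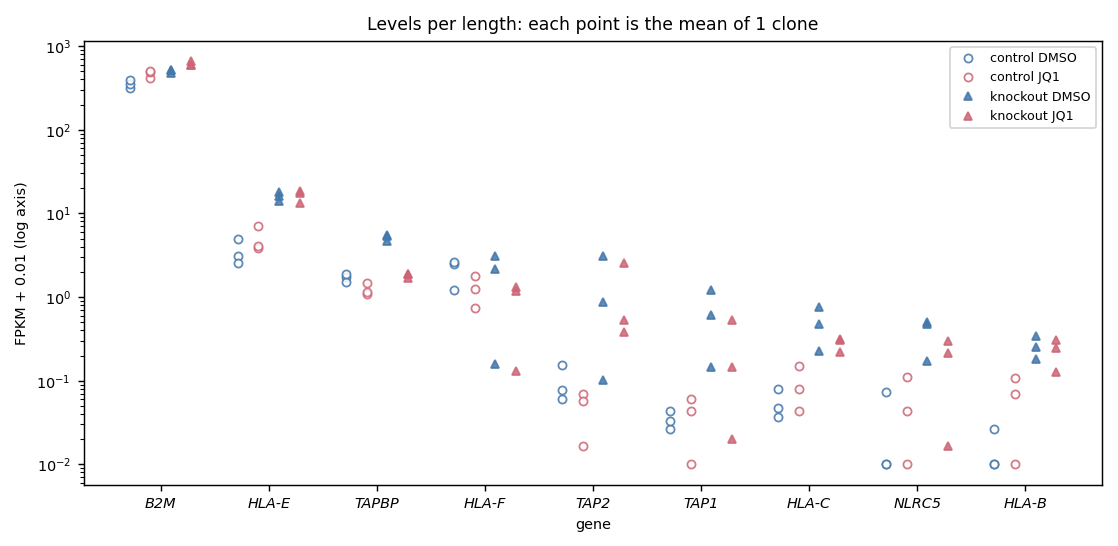
Levels per length of the 9 members in FPKM plus an offset of 0.01, on a log axis, by gene. Each point is the mean of 1 clone (open circles, control clones; filled triangles, knockout clones; blue, DMSO; red, JQ1), and B2M stands far above the members at the right, whose control clones lie near the bottom of the axis.

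Loss of NEUROD1 was compared between 3 knockout and 3 control clones with DMSO. HLA-E, TAPBP, B2M and TAP1 rose, HLA-C rose in the fit without the minimum, and TAP2, NLRC5 and HLA-F did not pass the threshold (limma on clone means of log2(normalized count + 1), adjusted p under 0.05). The adjustment was over all 15819 genes, and for HLA-C and NLRC5 over all genes with a read in any library. No member fell. Over all genes tested, 6.32% were called higher and 6.23% lower in this comparison. TAP1 and TAP2 reached the minimum through knockout libraries and the left-out library alone, in 9 libraries with it and 8 without it, so their passing it is not independent of the difference.

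HLA-E presents leader peptides of other class I molecules to the NKG2A receptor of natural killer cells. In control clones with DMSO its normalized counts ran from 81.6 to 192 over 9 libraries, with a median of 110. In knockout clones they ran from 467 to 701 with a median of 594, and the groups did not overlap. The rise was 2.31 on the log2 scale (SE 0.31, 4.95-fold, adjusted p = 0.0055, limma), and clone means were 485, 615 and 671 against 86.8, 103 and 182. With JQ1 the knockout libraries ran from 450.0 to 790.0 and the control libraries from 142 to 282, again without overlap, and the rise was 1.78 (SE 0.29, adjusted p = 0.0099, limma; 2.07, SE 0.40 and adjusted p = 0.019 with the left-out library). Every knockout library stood above every control library for 10.2% of all tested genes with DMSO and for 9.37% with JQ1.

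B2M is the invariant light chain that every class I heavy chain needs to reach the surface. Its libraries ran from 2124 to 2874 normalized counts in control clones with DMSO (median 2550) and from 3232 to 4058 in knockout clones (median 3648). The groups were apart, and the difference was small next to that of HLA-E: 0.54 on the log2 scale (SE 0.14, 1.46-fold, adjusted p = 0.046, limma). This call was lost in 12 of 22 other settings that kept the clone as the replicate, among them edgeR (adjusted p = 0.057) and each setting without 1 of the 6 clones (up to 0.18). With JQ1 the knockout libraries (4011 to 5018) also lay above the control libraries (2962 to 3685), at 0.41 (SE 0.14), which did not pass the threshold (adjusted p = 0.12, limma; 0.63 and adjusted p = 0.16 with the left-out library).

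TAPBP encodes tapasin, which bridges heavy chains to the transporter. It ran from 77.9 to 121 normalized counts in control libraries with DMSO (median 90.1) and from 231 to 314 in knockout libraries (median 256). All knockout libraries lay above all control libraries, by 1.50 on the log2 scale (SE 0.20, 2.82-fold, adjusted p = 0.0058, limma). With JQ1 the knockout libraries (93.9 to 130, median 101) barely cleared the control libraries (51.8 to 93.1, median 78.0). The difference there was 0.58 (SE 0.25, adjusted p = 0.19, limma; 1.03, SE 0.45 and adjusted p = 0.19 with the left-out library).

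**Figure D2:**
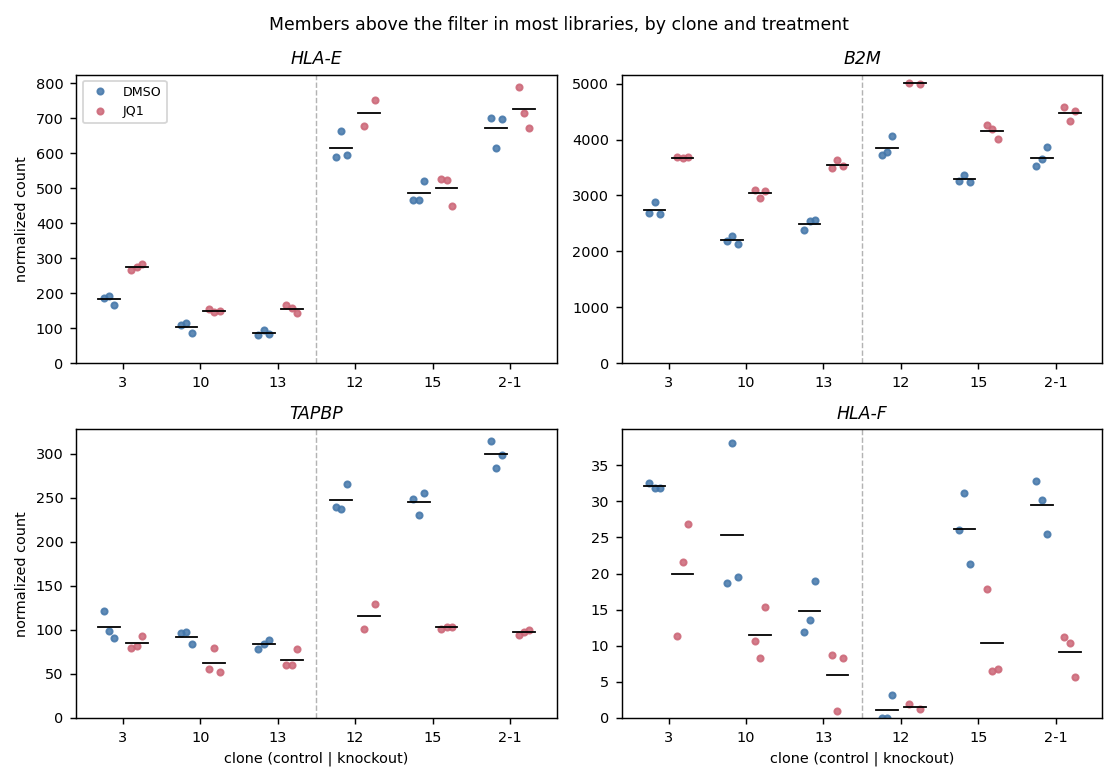
Normalized counts of HLA-E, B2M, TAPBP and HLA-F in every library used, by clone (control clones left of the dashed line, knockout clones right of it) and treatment (blue, DMSO; red, JQ1). Points are libraries and bars clone means. Knockout libraries of HLA-E and B2M lie above the control libraries of the same treatment, and HLA-F is near 0 in knockout clone 12.

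TAP1 and TAP2 are the subunits of the transporter, and both were near 0 in control clones. TAP1 gave 8 reads in all over the 9 control libraries with DMSO, 0 to 2.12 normalized counts each, against 197 reads over the 9 knockout libraries. The knockout clones differed from each other. Clone 12 held 40.0, 54.4 and 38.9 normalized counts, clone 15 held 20.4, 21.4 and 18.3, and clone 2-1 held 5.14, 2.01 and 7.54. So 1 library of clone 2-1 lay within the control range and the groups overlapped. The fitted rise was 3.36 on the log2 scale (SE 0.80, adjusted p = 0.039, limma), a size that depends on the pseudocount with so few control reads. It was lost in 8 of 20 other settings, among them a pseudocount of 5 (adjusted p = 0.073) and leaving out knockout clone 12 (0.071) or 15 (0.11).

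TAP2 followed the same order of clones with a wider spread. In control libraries with DMSO it ran from 0 to 9.57 normalized counts (30 reads in all). Knockout clone 12 held 115, 108 and 101 normalized counts and clone 15 held 13.9, 26.3 and 17.3. Clone 2-1 held 4.11, 5.04 and 3.77, inside the control range. The fitted difference of 2.65 (SE 1.09) did not pass the threshold (adjusted p = 0.17, limma), whereas DESeq2 on whole reads called it (0.0071). With JQ1 neither subunit passed: TAP1 at 1.67 (SE 1.01, adjusted p = 0.35; 2.26 and 0.33 with the left-out library) and TAP2 at 2.13 (SE 1.05, adjusted p = 0.25, limma; 0.046 by DESeq2).

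NLRC5, the class I transactivator, also ranked clone 12 first. Control libraries with DMSO gave 4 reads in all, all from 1 library of clone 3, and 8 of 9 stood at 0. Knockout clone means were 14.8, 6.76 and 1.68 normalized counts for clones 12, 15 and 2-1, from 40, 21 and 5 reads. Exact 95% Poisson intervals of those read sums were 28.6 to 54.5, 13.0 to 32.1 and 1.62 to 11.7, for counting error only. In the fit without a minimum the difference was 2.48 (SE 0.72, adjusted p = 0.080 with DMSO) and 0.88 (SE 0.68, adjusted p = 0.49 with JQ1, limma; 1.62 and 0.44 with the left-out library), neither past the threshold.

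HLA-C is a classical heavy chain and a ligand of killer-cell immunoglobulin-like receptors. It gave 5 reads over the 9 control libraries with DMSO (0 to 2.29 normalized counts) and 77 over the knockout libraries (1.86 to 15.1). Here clone 15 was lowest, at a clone mean of 3.61 against 10.4 in clone 12 and 12.6 in clone 2-1. Without a minimum the rise was 2.65 (SE 0.53, adjusted p = 0.025 with DMSO), lost without any of the 3 control clones, knockout clone 12 or knockout clone 2-1 (0.052 to 0.092). With JQ1 the difference of 1.70 (SE 0.44) did not pass (adjusted p = 0.063, limma; 2.63 and 0.11 with the left-out library). It passed without control clone 13 (adjusted p = 0.048, limma). Replicate 1 of that clone with JQ1, the library with counts of CEACAM6, held 4.95 normalized counts of HLA-C, the most of any control library.

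HLA-B, the classical heavy chain next to it, ran from 0 to 0.05 FPKM in control libraries with DMSO and from 0.07 to 0.47 FPKM in knockout libraries. Mean log2(FPKM + 0.1) was 1.65 higher in knockout clones with DMSO and 1.15 higher with JQ1. The control mean with JQ1 includes clone 13 replicate 1, the library with counts of CEACAM6, which held the highest control value of 0.19 FPKM. The exact two-sided permutation test gave p = 0.1 in each, the smallest that 3 against 3 clones allow. No counts lie behind these FPKM here, so their depth is unknown.

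HLA-F, a non-classical heavy chain that can reach the surface without peptide, was the one member with a negative fitted difference. Control libraries with DMSO ran from 11.9 to 38.1 normalized counts. Knockout clones 15 (21.3 to 31.1) and 2-1 (25.4 to 32.9) lay inside that range, and clone 12 held 0, 0 and 3.24. The difference of -1.10 (SE 1.13, adjusted p = 0.59, limma) turned to 0.28 (adjusted p = 0.71) without clone 12. With JQ1 it was -0.80 (SE 0.74, adjusted p = 0.54, limma; -0.03 and 0.98 with the left-out library). Clone 12, highest in TAP1, TAP2 and NLRC5, was thus lowest in HLA-F.

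**Figure D3:**
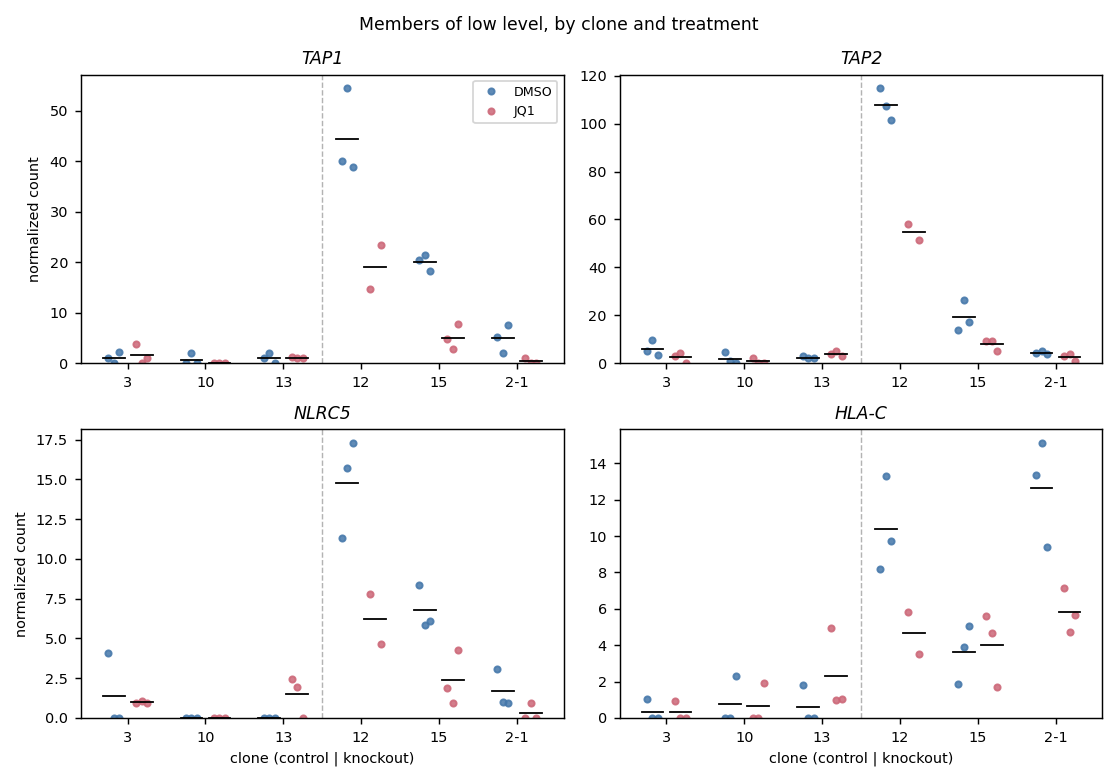
Normalized counts of TAP1, TAP2, NLRC5 and HLA-C in every library used, by clone (control clones left of the dashed line) and treatment (blue, DMSO; red, JQ1). Points are libraries and bars clone means. In TAP1, TAP2 and NLRC5 with DMSO, knockout clone 12 lies highest, clone 15 between and clone 2-1 near the control clones, and most JQ1 points lie below the DMSO points of the same knockout clone.

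Members thus moved in different orders over the 6 clones and 2 treatments. Over the 12 clone-by-treatment means of log2 levels, Pearson's r was 0.95 between TAP1 and TAP2, 0.86 between HLA-E and B2M and 0.75 between TAP1 and TAPBP. It was 0.22 between B2M and TAPBP and -0.67 between TAP2 and HLA-F. These are descriptions over means that share clones and treatments. Among 12235 other genes with a mean of at least 50 normalized counts, those most like HLA-E were ATP6AP2 (0.97), FBXL12 (0.97) and MARCH3 (0.97), and those most like B2M were SNAP23 (0.98), FANCE (0.97) and RRAS2 (0.96). RHOH (0.97), MTERF (0.96) and PCDH7 (0.96) were most like TAP1, and OSMR (0.97), PTGER4 (0.96) and FAM124A (0.95) most like TAP2. TAPBP had TSPAN4 (0.97), RP3-428L16.2 (0.95) and AKAP6 (0.94), and HLA-F had MDH1 (0.95), GALNT6 (0.94) and OSGEPL1 (0.94).

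JQ1 was compared with DMSO within each genotype, by taking JQ1 minus DMSO in every clone, with the spread shared by all 6. In control clones B2M and HLA-E rose and TAPBP fell. In knockout clones B2M rose, TAPBP and TAP1 fell, and HLA-E did not pass the threshold. JQ1 moved much of the transcriptome: 25.1% of tested genes were called higher and 27.3% lower in control clones, and 26.2% and 30.2% in knockout clones. Calls of 2 higher and 1 lower among 6 tested members in controls, and 1 higher and 2 lower in knockouts, are to be read against these shares. For how many of all genes the JQ1 and DMSO libraries lie apart was not counted.

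B2M rose in every clone. In control clones the JQ1 libraries ran from 2962 to 3685 normalized counts (median 3520), against 2124 to 2874 with DMSO. The rise there was 0.47 on the log2 scale (SE 0.05, adjusted p = 0.00010, limma). In knockout clones the rise was 0.33 (SE 0.05, adjusted p = 0.00050, limma; 0.55, SE 0.13 and adjusted p = 0.0082 with the left-out library). The 6 clones ranged from 0.28 in clone 2-1 to 0.51 in control clone 13.

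HLA-E rose with JQ1 in control clones by 0.65 (SE 0.09, adjusted p = 0.00047, limma), from a clone mean of 124 ± 50.7 to 193 ± 70.5 normalized counts. The rise of each control clone was 0.53 to 0.83. In knockout clones, already high, HLA-E moved from 591 ± 95.5 to 647 ± 127, a difference of 0.12 (SE 0.09, adjusted p = 0.27, limma; 0.42 and 0.10 with the left-out library), with 0.04 to 0.22 per clone. Tested directly, the response of knockout clones was lower by -0.53 (SE 0.13, adjusted p = 0.044, limma). That call was lost in 13 of 22 other settings, with edgeR at 0.0503, without control clone 13 JQ1 replicate 1 at 0.052, and with the left-out library at -0.23 and 0.66.

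TAPBP went down with JQ1 in all 6 clones. In knockout clones the JQ1 libraries held 93.9 to 130 normalized counts and the DMSO libraries 231 to 314. The fall was -1.32 (SE 0.14, 0.40-fold, adjusted p = 9.5e-05, limma; -0.86, SE 0.31 and adjusted p = 0.046 with the left-out library). In control clones the fall was -0.40 (SE 0.14, adjusted p = 0.036, limma), lost in 7 of 22 other settings, most of all with the left-out library (SE 0.31, adjusted p = 0.31). Clone values ran from -1.10 to -1.61 in knockouts and from -0.28 to -0.59 in controls. The difference between the responses was -0.92 (SE 0.19, adjusted p = 0.030, limma), lost in 8 of 22 settings, among them each one without a control clone (0.0999 to 0.105), and at -0.46 and 0.58 with the left-out library. Over all genes 3.75% were called with a higher and 3.61% with a lower response in knockout clones. TAPBP in JQ1-treated knockout clones stood at 105 ± 9.36 normalized counts, beside 93.0 ± 10.1 in DMSO-treated control clones.

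TAP1 with JQ1 stood at 14.6 and 23.3 normalized counts in knockout clone 12 and at 4.69, 2.80 and 7.66 in clone 15. Clone 2-1 gave 1 read over its 3 JQ1 libraries. Clones 12, 15 and 2-1 gave -1.21, -1.88 and -2.10, and the fall was -1.73 (SE 0.37, adjusted p = 0.0039, limma; -1.13, SE 0.56 and adjusted p = 0.12 with the left-out library). In control clones, with 8 reads per treatment, TAP1 stood at -0.03 (SE 0.37, adjusted p = 0.95, limma), and a fall was not detectable at this depth. The difference in response of -1.69 (SE 0.52) did not pass the threshold (adjusted p = 0.082, limma; -1.10 and 0.45 with the left-out library). TAP2 in normalized counts gave -0.66 to -1.17 in the 3 knockout clones, and the value of -0.93 (SE 0.38) did not pass the threshold (adjusted p = 0.066, limma). It passed with edgeR (adjusted p = 0.036) and with a pseudocount of 5 (-0.71, adjusted p = 0.028), and stood at -0.57 (adjusted p = 0.30) with the left-out library. In FPKM it was -0.013 (adjusted p = 0.98), and clone 2-1 went from 0.0933 to 0.373 FPKM. TAP2 in control clones stood at -0.41 (SE 0.38, adjusted p = 0.40, limma).

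NLRC5 in knockout clones fell by 1.16 on the log2 scale without a minimum (SE 0.36, adjusted p = 0.024, limma), from 66 to 21 reads over 9 and 8 libraries. The call was lost in 6 of 11 other settings, with edgeR at 0.11 and with the left-out library at 0.56. In control clones NLRC5 stood at 0.45 (SE 0.36, adjusted p = 0.35, limma). HLA-C stood at -0.64 (SE 0.39, adjusted p = 0.20; 0.30 and 0.69 with the left-out library) in knockout and 0.32 (SE 0.39, adjusted p = 0.55) in control clones. HLA-F stood at -1.08 (SE 0.43, adjusted p = 0.063) in control clones, with 3 of 3 clones lower, and at -0.79 (SE 0.43, adjusted p = 0.15; -0.015 and 0.99 with the left-out library) in knockout clones, where clone 12 gave 3 reads over its 3 DMSO libraries. Without clone 12 the HLA-F value in knockout clones was -1.51 (adjusted p = 0.0034, limma), and with all clones edgeR called it (-1.32, adjusted p = 0.012). HLA-B went from clone means of 0.333, 0.17 and 0.243 FPKM in knockout clones 12, 15 and 2-1 with DMSO to 0.235, 0.117 and 0.297 with JQ1, and its response was not tested.

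For the other members the difference in JQ1 response did not pass the threshold. It was -1.60 (SE 0.51, adjusted p = 0.094) for NLRC5 and -0.96 (SE 0.55, adjusted p = 0.32) for HLA-C, both fitted without the minimum. The 9 control libraries with DMSO held 4 reads of NLRC5 and 5 of HLA-C. A fall in control clones was not detectable at this depth, so these 2 values cannot show that the responses differ. TAP2 stood at -0.52 (adjusted p = 0.58), B2M at -0.13 (adjusted p = 0.24) and HLA-F at 0.29 (adjusted p = 0.80, limma). With the left-out library the values were -0.86 for NLRC5, -0.021 for HLA-C, -0.16 for TAP2, 0.081 for B2M and 1.07 for HLA-F, none past the threshold.

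**Figure D4:**
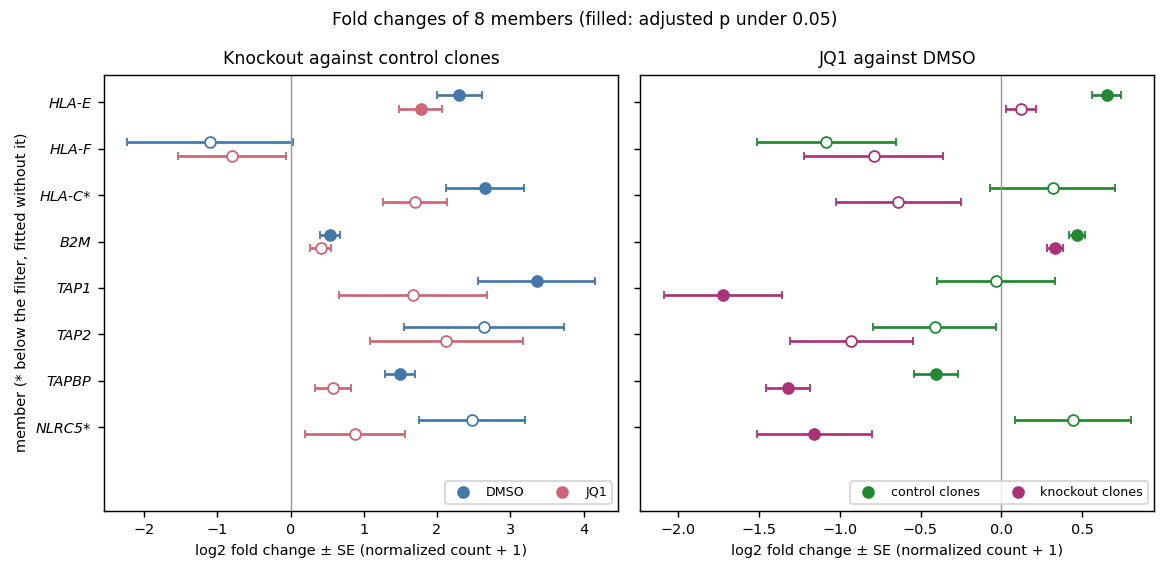
Log2 fold changes with their SE for the 8 members with normalized counts, for knockout against control clones (left) and for JQ1 against DMSO (right). Colours give the treatment on the left (blue, DMSO; red, JQ1) and the genotype on the right (green, control; purple, knockout). Filled points passed the threshold of 0.05 on the adjusted p and starred genes were fitted without the minimum. HLA-E lies right of 0 in both genotype comparisons, and TAP1, TAPBP and NLRC5 lie left of 0 with JQ1 in knockout clones.

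The steps before and after the transporter were followed in gene lists. Of the immunoproteasome subunits and the proteasome activator, 6 genes of which 4 were tested, 1 rose in knockout clones with DMSO and 2 with JQ1 (list median 0.30 and 0.36 on the log2 scale, against 0.01 and 0.01 over all genes). Of all genes 6.32% rose with DMSO and 5.63% with JQ1. PSME1, an activator subunit, rose from 661 ± 115 to 1208 ± 46.1 normalized counts with DMSO (0.88, SE 0.16, adjusted p = 0.016, limma) and by 0.74 with JQ1 (SE 0.19, adjusted p = 0.0498, limma). PSME2, its partner, rose with JQ1 from 891 ± 82.1 to 1453 ± 202 (0.70, SE 0.16, adjusted p = 0.036, limma). None of the 3 constitutive catalytic subunits passed between genotypes (median -0.07 with DMSO), and all 3 fell with JQ1 in both genotypes, as PSMB5 did by 0.90 in control and 0.91 in knockout clones. JQ1 lowered 27.3% of all genes in control and 30.2% in knockout clones.

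PSMB8 and PSMB9, the inducible catalytic subunits encoded beside TAP1, were below the minimum and are named after their values were seen, as are IRF2, CIITA and HLA-DRA. PSMB8 stood at 20.6 normalized counts in knockout clone 12 with DMSO, 6.16 in clone 15, 0 in clone 2-1 and at most 0.34 in control clones. PSMB9 stood at 7.74, 0.958 and 0.336 in the same order and at 0 in control clones. IRF2, a factor that binds interferon-response elements, stood at 101 in clone 12, 9.21 in clone 15, 6.25 in clone 2-1 and at most 0.592 in control clones with DMSO. CIITA, the class II counterpart of NLRC5, stood at 13.97, 4.57 and 1.98 in the same clones and at up to 2.22 in control clones, within which clone 2-1 lay. HLA-DRA, a class II chain it drives, stood at 20.2, 5.20 and 0, and at 0 in control clones. Fitted without a minimum, none of the 5 passed the threshold between genotypes with DMSO (adjusted p = 0.061 for IRF2 and 0.20 to 0.29 for the others, limma). With JQ1 in knockout clones IRF2 fell by 1.21 (adjusted p = 0.014) and PSMB8 by 1.56 (adjusted p = 0.036, limma).

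Of 10 genes for peptide loading and trimming in the endoplasmic reticulum, 8 were tested and none passed between genotypes (median 0.17 with DMSO and 0.18 with JQ1). CALR, the chaperone of the loading complex, stood at 18976 ± 1176 in control and 25071 ± 6988 in knockout clones (0.36, SE 0.23, adjusted p = 0.36, limma). With JQ1, 6 of the 8 fell in each genotype and none rose, where 27.3% and 30.2% of all genes fell in control and knockout clones (medians -0.35 and -0.41, against -0.01 and -0.05 over all genes). Of all genes 25.1% and 26.2% rose in these clones. ERAP1, which trims peptides, fell most among those named, by 1.79 in control and 1.45 in knockout clones (adjusted p = 3.4e-05 and 7.6e-05, limma).

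Among 20 other class I and class I-like molecules, 10 were tested, and RAET1G, a stress ligand of the activating receptor NKG2D, was the one that passed between genotypes (0.703 ± 0.908 against 14.1 ± 6.74 normalized counts with DMSO, adjusted p = 0.016, limma). RAET1G could reach the minimum only through knockout libraries and the left-out library, so its passing it is not independent of the difference. MR1, which presents vitamin metabolites, fell with JQ1 within knockout clones by 1.08 (adjusted p = 9.3e-05, limma), from 735 ± 253 to 339 ± 84.7 normalized counts, and its JQ1 response differed between genotypes (-0.92, SE 0.16, adjusted p = 0.021). In that list 2 rose and 1 fell in control clones with JQ1, where 25.1% of all genes rose and 27.3% fell. In knockout clones 2 rose and 5 fell, where 26.2% and 30.2% of all genes did.

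The factors of the SXY module, 9 genes of which 8 were tested, gave no call between genotypes (median -0.10 with DMSO and 0.06 with JQ1). RFX5, which binds the X1 box, stood at 1555 normalized counts in control and 1604 in knockout clones. NFYA, a Y-box subunit, rose with JQ1 by 0.62 in control and 1.06 in knockout clones, and the responses differed by 0.44 (SE 0.09, adjusted p = 0.031, limma). ATF1, an X2-box factor, fell with JQ1 by 0.52 in control and 0.79 in knockout clones (adjusted p = 0.0014 and 0.00014, limma). In the list 3 rose and 1 fell with JQ1 in control clones, where 25.1% of all genes rose and 27.3% fell. In knockout clones 5 rose and 2 fell, where 26.2% and 30.2% of all genes did. CREB1, another X2-box factor, differed in response in the same direction as NFYA, by 0.42 (SE 0.09, adjusted p = 0.036). Of 12 NF-kB and IRF factors 9 were tested. With DMSO IRF9, a partner of STAT proteins, rose from 53.2 ± 13.4 to 147 ± 23.0 (1.46, SE 0.28, adjusted p = 0.019), and REL, an NF-kB subunit, fell from 697 ± 246 to 179 ± 30.8 (-1.90, SE 0.31, adjusted p = 0.011, limma).

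All 13 genes for interferon receptors and JAK-STAT signalling were tested, and 3 rose and none fell in knockout clones with each treatment (medians 0.44 and 0.47). Of all genes 6.32% rose with DMSO and 5.63% with JQ1. SOCS3, a feedback inhibitor, rose from 16.5 ± 12.4 to 207 ± 91.5 normalized counts with DMSO (3.73, SE 0.59, adjusted p = 0.010, limma). STAT2 rose from 642 ± 62.1 to 1137 ± 135 (0.82, SE 0.16, adjusted p = 0.018) and IFNGR2, a chain of the interferon-gamma receptor, from 742 ± 80.9 to 1208 ± 151 (0.70, SE 0.16, adjusted p = 0.031, limma). With JQ1 8 rose and 1 fell in control clones, where 25.1% of all genes rose and 27.3% fell. In knockout clones 7 rose and 2 fell, where 26.2% and 30.2% of all genes did. JAK1 rose by 1.01 in control and 0.63 in knockout clones, and the responses differed (-0.39, SE 0.10, adjusted p = 0.049, limma).

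Interferon-stimulated genes outside antigen presentation went both ways between genotypes: of 26 genes 16 were tested, and 4 rose and 3 fell with DMSO (median 0.44), and 3 rose and 4 fell with JQ1. USP18, a brake on interferon signalling, rose from 0.458 ± 0.397 to 17.5 ± 6.43 normalized counts (adjusted p = 0.0063, limma). With control clones that low, USP18 could reach the minimum only through knockout libraries and the left-out library. The same holds for IFITM3, also called higher, at 1.25 ± 1.64 in control and 207 ± 165 in knockout clones with DMSO. For both genes, passing the minimum is not independent of the difference. OAS1, a sensor of double-stranded RNA, stood at 16388 ± 10058 in control and 1.63 ± 1.14 in knockout clones with DMSO, and OAS3 at 96.0 ± 13.4 and in no read of the knockout libraries. OAS1 and OAS3 could reach the minimum only through control libraries and the left-out library. So their passing it is not independent of the difference either. IFI44 fell from 172 ± 23.3 to 48.0 ± 7.90 (adjusted p = 0.0061, limma). With JQ1 1 of the 16 rose and 11 fell in control clones (median -1.29), and 1 rose and 9 fell in knockout clones (median -0.79). The 1 that rose in knockout clones was OAS3, from 0 to 0.949 normalized counts. JQ1 lowered 27.3% of all genes in control and 30.2% in knockout clones, and raised 25.1% and 26.2%. The responses of OAS1 (2.40), OAS3 (2.65), IFIT2 (1.82) and ISG15 (-1.32) differed between genotypes (adjusted p = 0.021, 0.017, 0.032 and 0.028, limma). In control clones JQ1 took OAS1 from 16388 to 1828 and OAS3 from 96.0 to 26.9 normalized counts. Knockout clones were near 0 with both treatments (OAS1 at 1.63 and 0.655, OAS3 at 0 and 0.949). Such a fall could not appear there, so the sign of these 2 differences was fixed in advance. Over all genes 6.32% were called higher and 6.23% lower in knockout clones with DMSO, and 5.63% and 5.53% with JQ1.

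Markers of other cell types were summed per library. Of 9 lung epithelial markers 6 have a row. Their summed level ran from 24.4 to 44.5 normalized counts in control and 29.2 to 68.8 in knockout libraries with DMSO, with SFTPA1 and CEACAM6 at 0 in both, against 68046 in the left-out library. Of 12 immune cell markers 3 have a row (PTPRC, CD14 and CD68), with sums of 28.4 to 90.4 in control and 220 to 934 in knockout libraries with DMSO. CD68, a lysosomal protein not limited to macrophages, made up most of it, at 41.7 ± 17.7 and 455 ± 391, and passed the threshold (adjusted p = 0.019, limma). CD14 stood at 10.1 ± 6.68 in control and 23.1 ± 11.2 in knockout clones with DMSO, without passing. With JQ1 it fell in knockout clones (-1.71, adjusted p = 0.0074, limma). PTPRC, given here for single clones only, averaged 1.44 in knockout clone 12 with DMSO and 15.8 in control clone 13. Stroma and endothelium markers also moved with genotype (6 of 7 in the table, sums of 7002 to 13286 against 16548 to 43775 with DMSO), with COL1A2 higher and CDH5 lower. Their part in the results was not tested.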

How the data were processed

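Per the labels' protocols, TruSeq Stranded mRNA libraries were made. H446 clones, 6 in number, were analysed from 2 deposited tables. The submitters' processing notes name cutadapt, STAR, RSEM and build hg19; no label or header gives versions, order or settings. The authors deposited DESeq2-normalized counts of 19014 genes, a signal in which each library's counts are scaled by its size factor, and RSEM values of 57820 genes in FPKM, scaled to length and library size. Every normalized value was a whole multiple of its library's step (100% within 1e-06), which gave whole reads: 13282337 to 18890506 per library used.

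The clone was the replicate, because libraries of a clone share its genome. log2(normalized count + 1) was averaged over the libraries of a clone and treatment and fitted with limma 3.58.1 (R 4.3.3) with a trend, on 3 against 3 clones for genotype and on JQ1 minus DMSO per clone for JQ1 and its difference between genotypes. Tests are two-sided, adjusted by Benjamini-Hochberg over 15819 genes in the main fit (15711 where the minimum is counted without the left-out library). Fits without the minimum (HLA-C, NLRC5, IRF2, PSMB8, PSMB9, CIITA and HLA-DRA) were adjusted over all genes with a read in any library. A setting with another minimum was adjusted over the genes it kept. Every adjusted p is from limma unless edgeR 4.0.16 or DESeq2 1.42.0 (on whole reads) is named. Fold changes on this scale understate low genes. These p-values measure the spread between 3 clones per genotype. On simulated data (15573 genes) the fits called 67.4% of genes changed 4-fold and 33.7% of those changed 2-fold for genotype with DMSO, and 99% and 82.3% for JQ1 in control clones. Of those calls 8.49% and 7.81% were false, above the nominal 5%. The simulation assumed a clone spread of the JQ1 response smaller than the spread between clones, so the JQ1 shares rest on that assumption. It changed far fewer genes than JQ1 moved here. Genes with few control reads, such as TAP1, TAP2, HLA-C and NLRC5, were not part of it.

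Members and lists were chosen with earlier results of these data known. All 9 members are named, HLA-B by its FPKM alone and with no test of its JQ1 response; of each list, up to 4 genes past the threshold with the smallest adjusted p could be named, or, with none past it, 2 with the highest mean; and for each tested member the 3 genes with the highest correlation. Alternatives were other pseudocounts, minimums, scalings, FPKM with an offset of 0.1, no trend, edgeR, DESeq2, single libraries with and without a replicate block, and leaving out each clone or replicate. The minimum counted over 35 libraries, leaving out control clone 13 JQ1 replicate 1, and the settings of HLA-C and NLRC5 were chosen after seeing the data. Coordinates are from GENCODE 29 and promoters from RefSeq; no hg19 coordinates were used.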

Additional observations from a re-analysis of the deposited data

Results flagged for a closer look

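One library, replicate 1 of the JQ1-treated knockout clone 12, was used in no main comparison, and all 9 members stood there above every other library. It held 209 FPKM of HLA-B against at most 0.47 FPKM elsewhere. In normalized counts it held 1894 of HLA-C (at most 15.1 elsewhere), 4539 of HLA-E (790.0), 317 of HLA-F (38.1) and 19308 of B2M (5018). It also held 776 of TAP1 (54.4), 526 of TAP2 (115), 1998 of TAPBP (314) and 732 of NLRC5 (17.3). The other 2 JQ1 libraries of that clone held 5.83 and 3.50 of HLA-C, 7.78 and 4.67 of NLRC5 and 1.94 and 1.17 of HLA-F. Lung epithelial markers summed to 68046 and class II genes to 26420 normalized counts in it.

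The response to JQ1 differed between genotypes for 2 members by the test of the difference itself, HLA-E (-0.53) and TAPBP (-0.92), on the log2 scale as knockout minus control clones. Among list genes named in the text the same test called MR1 (-0.92), JAK1 (-0.39) and ISG15 (-1.32) with a negative difference. It called NFYA (0.44), CREB1 (0.42), REL (0.94), OAS1 (2.40), OAS3 (2.65), IFIT2 (1.82) and PVRL2 (0.67) with a positive one. The sign does not give the size of a response. PVRL2 fell less in knockout clones (-1.14) than in control clones (-1.81), and TAPBP fell more (-1.32 against -0.40). With DMSO OAS1 averaged 1.63 normalized counts in knockout clones and OAS3 was at 0 there. A fall with JQ1 could thus not appear in knockout clones, which fixed the sign of these 2 differences in advance.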

How the results depend on the processing

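Called values of members kept their side of the threshold in 270 of 330 alternatives and lost it in 60, and none reversed. Of 472 alternatives of uncalled values, 418 kept direction and stayed uncalled, 42 passed and 12 reversed. The reversed ones, all uncalled, were HLA-F between genotypes with DMSO without knockout clone 12 (0.28; -1.83 to 0.28 over all clones and replicates left out); for JQ1 in control clones HLA-C without control clone 13 (-0.037; to 0.51), TAP1 in FPKM (0.020), without control clone 10 (0.21) and without replicate 2 (0.30; from -0.30), and TAP2 without control clone 3 (0.0020; from -0.92); HLA-C for JQ1 in knockout clones with the left-out library (0.30); and for the difference in response HLA-F by edgeR (-0.30), without knockout clone 12 (-0.42) and without replicate 2 (-0.18; -0.42 to 0.95 over all), B2M with the left-out library (0.081) and TAP2 in FPKM (0.40). The cause was not tested. DESeq2 moved the number of genes past the threshold from 1985 to 3327 for genotype with DMSO, from 1766 to 2924 with JQ1 and from 1164 to 1780 for the difference in response. Leaving out 1 clone or replicate number gave 906 to 2033, 723 to 1700 and 12 to 1664, with the lowest in each without control clone 10; for JQ1 in control and knockout clones it gave 6044 to 8966 and 7470 to 8519. The difference also moved to 526 in FPKM, 208 without the trend and 490 with the left-out library. Equal library totals, TMM and FPKM moved the median of all genes by at most 0.07 (log2). With single libraries as replicates the numbers were 11683, 11597 and 7488, since libraries of 1 clone are not independent of each other. With a replicate block they were 11705, 11594 and 7447. Replicate numbers do not pair the samples: deviations of same-numbered libraries correlated at 0.008 on average (-0.183 to 0.198), those of different numbers at -0.004. Depth limits TAP1, TAP2, NLRC5 and HLA-C in control clones, where 4 to 30 reads over 9 libraries stand behind each DMSO value.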

Other observations

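Neighbours of the members in the MHC were counted from HLA-F to TAPBP (chr6:29722775-33314387, GENCODE 29 on GRCh38), where 100 tested genes lie, 95 of them no members. Between genotypes with DMSO 4 of the 95 rose (C2, VWA7, CLIC1 and CFB) and 1 fell (HCG4), with a median of 0.08 on the log2 scale, where 6.32% of all genes rose and 6.23% fell. Between genotypes with JQ1 1 rose (CFB) and 2 fell (TCF19 and HCG4), against 5.63% and 5.53% of all genes. JQ1 itself lowered 40 of the 95 and raised 11 in control clones (median -0.24), and lowered 50 and raised 10 in knockout clones (median -0.34). Of all genes 27.3% and 30.2% fell in the respective clones, and 25.1% and 26.2% rose. These genes are named because they passed, after their values were seen. C2 and CFB encode complement proteins.

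Checkpoint ligands, 9 genes of which 6 were tested, held 2 that rose in knockout clones with DMSO and none that fell, where 6.32% of all genes rose. CD274 (PD-L1) rose from 1.24 ± 1.03 to 42.1 ± 29.8 normalized counts (adjusted p = 0.029, limma), and PVRL2, a ligand of the receptors TIGIT and DNAM-1, from 114 ± 61.8 to 1412 ± 492 (adjusted p = 0.0071). CD274 could reach the minimum only through knockout libraries and the left-out library, so its passing it is not independent of the difference. With JQ1 1 of the 6 rose and 3 fell in control clones, where 25.1% of all genes rose and 27.3% fell. In knockout clones none rose and 5 fell, where 26.2% and 30.2% of all genes did. Class II genes, 4 tested of 14, gave no call between genotypes in either treatment.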
